A study of Mus musculus with 34 samples.

Results

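Gene expression in the mouse cornea was compared across birth, between 3 whole-cornea arrays of embryonic day 17.5 (E17.5) and 3 of postnatal day 3 (P3). These 6 of the 34 arrays in the series were chosen by the age in their labels alone. The series follows whole cornea over 12 ages from E14.5 to 2 years, and adds 1 array of epithelium and 1 of stroma. All mice were wild-type CB6, with no treatment, transgene or deletion given for either age. Per the labels' protocols, corneas were dissected from the globe and freed of other tissue, and their RNA was amplified before hybridization. The labels give no sex and do not say whether the arrays of an age came from separate animals or pools. The p-values below thus measure only the spread between arrays of an age, pooled over the 12 ages, and that spread may be technical.

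The cornea is a stratified epithelium, marked by keratin 12, over a collagen stroma laid down by keratocytes of neural crest origin and a single-layered endothelium that pumps water out of the stroma. Its transparency depends on a compact stroma, and its surface on mucins, antimicrobial peptides and proteases made by the outer epithelial cells. In the mouse the eyelids are still fused at both ages, and the epithelium thickens and the stroma compacts over the weeks after birth. Birth also changes the oxygen, fuel and hormones that reach every tissue.

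Across birth, some genes of epithelial surfaces rose, among them the keratin Krt6b, the antimicrobial peptide Defb1 and the membrane mucin Muc4. The secreted Wnt binder Sfrp2, the retinoic acid carrier Crabp2, the matrix proteoglycan Vcan, the collagen hydroxylase P4ha2 and the glucose transporter Slc2a1 fell, while most members of their gene lists did not pass the test. The cornea's own keratin, Krt12, fell as well and was high again at P7. Most of the largest falls were those of skeletal muscle genes, which were high on 2 of the 3 E17.5 arrays. A few genes of photoreceptors rose on the P3 arrays, and X- and Y-linked genes separated the ages completely.

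Values are array intensities as deposited, on a linear scale, and differences are P3 minus E17.5 on the log2(intensity + 16) scale with the SE of the fit, which understates changes of dim genes. Of 12998 genes tested with limma, 246 were called. A call needed a Benjamini-Hochberg adjusted p under 0.05 and a log2 difference of at least 1 in either direction. The share called was 1.89%, with 102 genes higher at P3 (0.785%) and 144 lower (1.11%). With each array centred on its median the split was 79 higher and 186 lower. The 3 P3 arrays did not overlap the 3 E17.5 arrays for 206 of the 246 called genes. Over all genes, 13.8% lay higher and 18.6% lower on every P3 array, and the median difference was -0.03. Array medians ran from 201.0 to 236.4. Lower quartiles were 118.0 to 122.3 at P3 and 91.6 to 102.1 at E17.5, so dim signals sat higher at P3. After quantile normalization 205 of the 246 genes were still called. With an offset of 64 in place of 16, 58 of the 102 rises and 121 of the 144 falls were still called.

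**Figure D1:**
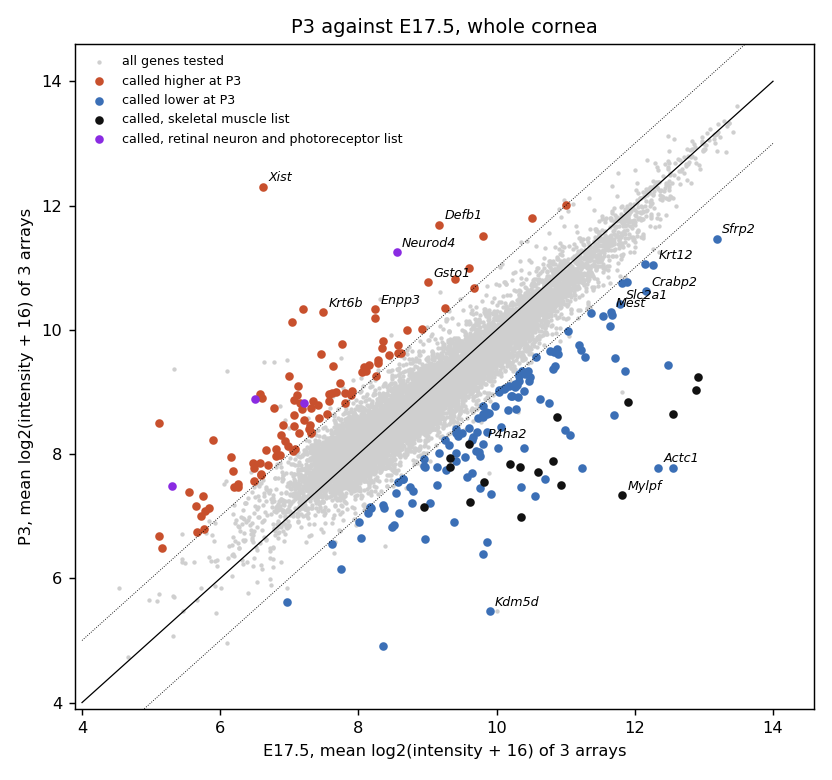
Mean log2(intensity + 16) of the 3 P3 arrays (vertical axis) against that of the 3 E17.5 arrays (horizontal axis) for the 12998 genes tested. The solid line marks equal levels, the dotted lines a log2 difference of 1 in each direction, and colours mark the 102 genes called higher, the 144 called lower, and the called members of the muscle and photoreceptor lists. The muscle genes lie among the largest falls, and the genes of the epithelial surface such as Krt6b and Defb1 above the upper dotted line.

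Both ages carried the genes of a cornea. Keratocan (Kera), a stromal proteoglycan, read 6197, 5071 and 6159 at E17.5 and 5270, 6805 and 7823 at P3. Keratin 5 (Krt5), of basal epithelial cells, read 6429, 6816 and 6125 and then 6559, 6776 and 7116. Neither gene was called, and the arrays of the ages overlapped for both.

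Several arrays stood apart in genes typical of other tissues, and these values come before the rest because they touch it. The source of this RNA was not tested. The intensities of 35 skeletal muscle genes summed to 136790, 12093 and 114841 on E17.5 replicates 1, 2 and 3, and to 7853, 8341 and 10133 at P3. E17.5 replicates 1 and 3 were thus high in muscle RNA, while replicate 2 lay closer to the P3 arrays, though above each of them. Of 28 muscle genes tested, 18 fell and 0 rose, with a median log2 difference of -2.28, against 1.11% of all genes called lower. Cardiac actin (Actc1), which embryonic skeletal muscle also makes, read 10090, 1264 and 10811 at E17.5 and 207, 190 and 213 at P3. It fell by 4.56 on the log2 scale (SE 0.70, adjusted p = 0.000377, limma). The myosin light chain Mylpf fell by 4.47 (SE 0.77, adjusted p = 0.000847), from 9295, 599 and 8158 to 174, 70.9 and 244. Troponin C (Tnnc1, -3.92), the embryonic light chain Myl4 (-3.86), the giant sarcomere protein titin (Ttn, -3.42) and embryonic myosin heavy chain (Myh3, -3.37) fell as well. Klhl41 (-3.47), Klhl31 (-3.28), Apobec2 (-3.10), Tnnt3 (-3.07), Tnnt2 (-3.06), skeletal actin (Acta1, -2.93) and nebulin (Neb, -2.89) complete the muscle genes among the 15 largest falls of named genes whose arrays did not overlap. Where the arrays overlapped, some called muscle genes fell further. Myl2, a myosin light chain chosen after its values were seen, fell by 4.78, from 37071, 166 and 32160 to 279, 176 and 170. In RNA of whole corneas, fewer cells of a type and less RNA per cell cannot be told apart.

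Leaving out the arrays rich in muscle RNA also moved the count of other genes called. What remains is E17.5 replicate 2, whose dim signals were the lowest of its age. Its lower quartile was 91.62, against 98.32 and 102.1 on replicates 3 and 1 and 118.0 to 122.3 at P3. With replicate 2 left out instead, the split was 76 higher and 221 lower. How far muscle RNA or dim signal moved the calls was not tested. Without E17.5 replicates 1 and 3, which leaves replicate 2 alone and assumes that it varies like the other ages, 418 genes were called, 358 higher and 60 lower. In that fit 92 of the 246 genes were still called, 63 higher and 29 lower, and 223 kept their direction. The 28 muscle genes tested had a median difference of -0.27 there. Tnnc1 (-1.96) and Mylpf (-1.92) still fell in size, while others such as Tnnt1 (0.14) and Des (0.16) changed sign. With 1 E17.5 array left, a lost call does not show that a gene was level. Among the 144 genes lower at P3, 73 had E17.5 replicate 2 nearer to the P3 arrays than to replicates 1 and 3. These held all 18 muscle list members called lower. The other 71 had replicate 2 nearer to the other E17.5 arrays. The first set also holds genes outside muscle's contractile machinery. Foxd1, a transcription factor of the periocular mesenchyme, read 919, 102 and 1098 at E17.5 and 95.0, 83.1 and 71.4 at P3. Lipoprotein lipase (Lpl) read 979, 267 and 1096 and then 223, 198 and 245, and the fatty acid carrier Fabp4 read 1472, 152 and 2045 and then 222, 160 and 199. For each of these 3 genes, the difference without replicates 1 and 3 was no longer called (Foxd1 -0.26, Lpl -0.25, Fabp4 0.31).

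Muscle gene promoters often carry the CArG box, the site of serum response factor. In the 250 bases before the first listed start (RefSeq, GRCm38.p6), 1.15% of the 10343 promoters matched to tested genes held a CArG box on either strand, as did 5 of the 114 promoters of genes lower at P3 and 3 of 76 of genes higher. The promoter of Actc1, shown because it had the largest fall among named genes whose arrays did not overlap, holds a single match 47 to 38 bases before the start, in capitals (chr2:114052876-114053125, minus strand).
Actc1: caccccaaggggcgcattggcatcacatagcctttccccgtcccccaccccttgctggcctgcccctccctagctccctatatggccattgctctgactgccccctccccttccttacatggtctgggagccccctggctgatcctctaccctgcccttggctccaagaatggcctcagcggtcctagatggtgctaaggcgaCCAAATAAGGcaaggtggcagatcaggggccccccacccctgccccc

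A few photoreceptor genes rose at P3. Of 21 genes of retinal neurons and photoreceptors tested, 4 rose and 0 fell, against 0.785% of all genes called higher. The list's median log2 difference was 0.58. Neurod4, a transcription factor of developing retinal neurons, read 901, 426 and 115 at E17.5 and 1205, 2240 and 5242 at P3, a rise of 2.70 (SE 0.74, adjusted p = 0.0198, limma). Crx, the transcription factor that directs photoreceptor genes, read 166, 121 and 116 and then 218, 393 and 958 (log2 difference 1.61). Arrestin (Sag, 2.39) and the axonemal protein Rp1 (2.19) also rose, as did phosducin (Pdc, 3.13) and the transducin gamma subunit Gngt1 (3.08), which are outside the list. Within P3 these genes were highest on replicate 3 and lowest on replicate 1: Pdc read 721, 1211 and 2345. The summed list read 16550, 11741 and 7631 at E17.5 and 11188, 15204 and 28113 at P3, so the sums of the ages overlapped. It lay between 4682 and 5790 on the P7 arrays. Of 9 retinal progenitor genes, limma called 0 higher and 1 lower (Sfrp2, also a Wnt gene of other tissues), and 1 was higher at an unadjusted p under 0.05. Their median was -0.16. These calls did not stand without E17.5 replicates 1 and 3: 0 of the 21 retinal neuron and photoreceptor genes and 1 of the 9 progenitor genes were called higher. The sizes were close to those above for Neurod4 (2.46, adjusted p = 0.116, limma), Crx (1.73, adjusted p = 0.0923), Sag (2.32, adjusted p = 0.174), Rp1 (2.29, adjusted p = 0.157), Pdc (3.39, adjusted p = 0.0705) and Gngt1 (3.17, adjusted p = 0.0705).

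Lens genes had positive differences that did not pass the test. All 19 lens genes had a positive difference, and for 15 of them the P3 arrays lay above the E17.5 arrays, against 13.8% of all genes. None was called by limma, and 6 rose at an unadjusted p under 0.05, as did 1561 of all 12998 genes. Gamma-crystallin D (Crygd) read 31.0, 31.3 and 13.6 at E17.5 and 349, 467 and 1620 at P3 (log2 difference 4.03, SE 1.60, adjusted p = 0.094, limma). The source of the retinal and lens gene signal, and its part in other differences, was not tested.

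**Figure D2:**
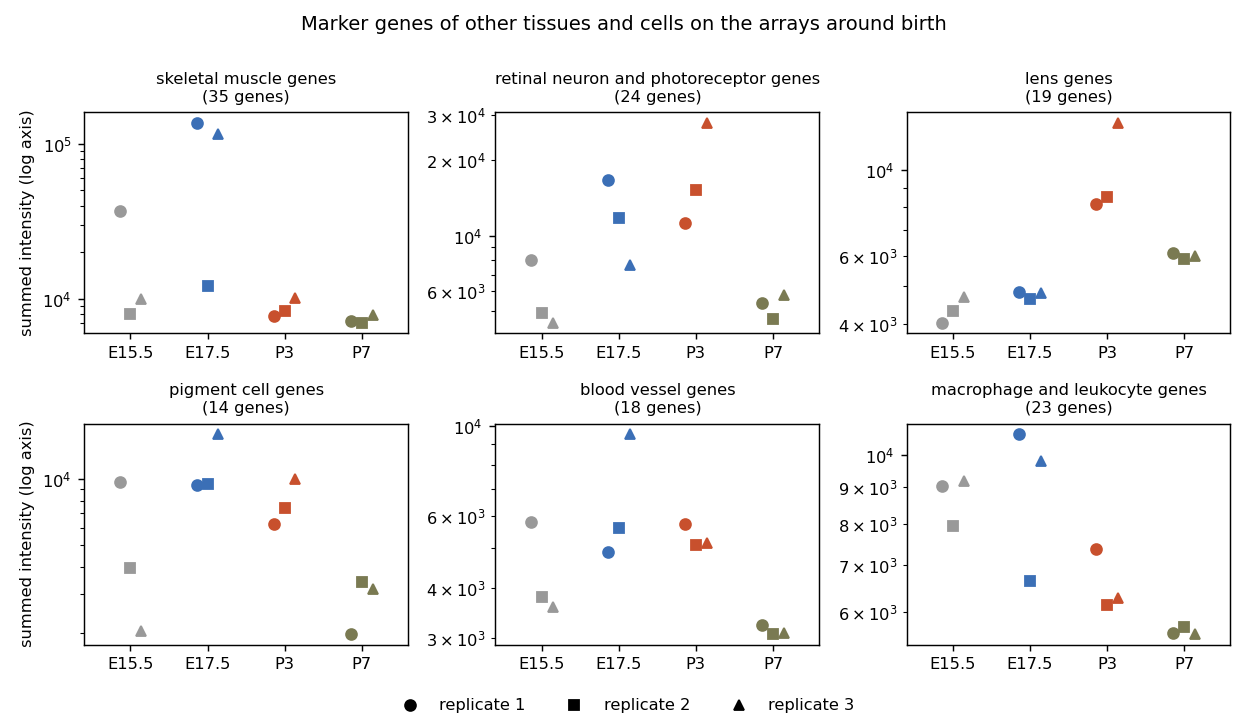
Summed intensity (log axis) of the genes of 6 marker lists on each array of E15.5, E17.5, P3 and P7, with the number of genes in each panel's title and a symbol for each replicate. Muscle genes are high on E17.5 replicates 1 and 3 (136790 and 114841), retinal neuron and photoreceptor genes on P3 replicate 3 (28113), and lens genes on all P3 arrays (8174, 8512 and 13265).

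The sex-linked genes divided the ages. Xist, the RNA that coats the inactive X chromosome, read 283, 24.9 and 62.8 at E17.5 and 4693, 5498 and 4973 at P3. The Y-linked demethylase Kdm5d read 1000, 973 and 849 and then 30.2, 17.9 and 39.1, and Y-linked Uty fell by 3.44. Every E17.5 array was thus low in Xist and high in Y-linked RNA, and every P3 array the reverse. Xist had the largest rise of all called genes (5.68, SE 1.60, adjusted p = 0.0234, limma), and Kdm5d fell by 4.43 (SE 1.22, adjusted p = 0.0207). A difference of sex and a difference of age cannot be told apart between these 6 arrays. E15.5 and P7 each hold both patterns: Xist read 30.9, 332 and 6082 at E15.5 and 5353, 66.0 and 4693 at P7.

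Among genes of epithelia, several rose with a wide gap between the ages. Krt6b, a keratin of activated and stratifying epithelia, read 179, 124 and 196 at E17.5 and 1242, 1060 and 1414 at P3. It rose by 2.80 on the log2 scale (SE 0.23, adjusted p = 1.73e-07, limma), and the ages were far apart. Defb1, a beta-defensin that kills microbes at epithelial surfaces, read 527, 690 and 475 and then 3040, 3428 and 3407. Its rise was 2.53 (SE 0.41, adjusted p = 0.000706). Gsto1, a glutathione transferase of corneal epithelium, read 461, 639 and 425 and then 1795, 1948 and 1480, a rise of 1.76 (SE 0.25, adjusted p = 0.000215). All 3 genes were still called when E17.5 replicates 1 and 3 were left out, with differences of 3.16, 2.23 and 1.41.

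The S100 genes S100a2 and S100a3, which encode calcium-binding proteins of epithelia, rose by 2.40 and 2.32. S100a2 read 76.3, 192 and 29.4 at E17.5 and 740, 383 and 405 at P3. Without E17.5 replicates 1 and 3 it was not called (1.27, adjusted p = 0.164, limma), since replicate 2 had the highest of the E17.5 values. The amino acid transporter Slc6a14 rose by 2.15 (SE 0.51), from 257, 53.7 and 271 to 983, 724 and 634. Enpp3, a surface enzyme that cleaves nucleotides, rose by 2.10 (SE 0.41), from 268, 191 and 452 to 1508, 1231 and 1117. Uridine phosphorylase (Upp1) rose by 1.97 (SE 0.42), from 67.4, 112 and 106 to 456, 366 and 418. For S100a2, Slc6a14, Enpp3 and Upp1 every P3 array lay above every E17.5 array, as the rule that named them requires. Of these, Slc6a14 and Enpp3 were called without E17.5 replicates 1 and 3, and so was S100a3, but Upp1 was not (1.74, adjusted p = 0.0758, limma).

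Of 14 mucin and ocular surface genes tested, 4 rose and 1 fell, against 0.785% and 1.11% of all genes. The list's median was 0.31. Muc4, a membrane-tethered mucin of the tear film's inner layer, read 298, 311 and 317 at E17.5 and 1407, 660 and 584 at P3. P3 replicate 1 was the highest, and the ages did not overlap (1.36, SE 0.31, adjusted p = 0.00692, limma). Muc20 showed the same order, 288, 280 and 238 against 1089, 584 and 484 (1.28, adjusted p = 0.0495). Galectin-3 (Lgals3), which binds the sugar chains of membrane mucins, rose by 2.01 (SE 0.58), from 176, 266 and 174 to 1035, 755 and 817. Psca, a lipid-anchored surface protein, rose by 2.26 (SE 0.59). Muc1 had a difference of 1.00 after rounding (adjusted p = 0.0274), but it lay just under 1 and was not called. Without E17.5 replicates 1 and 3, 2 of these 14 genes were called higher and 1 lower. Psca was called there, while Muc4 (1.35, adjusted p = 0.0663, limma), Muc20 (1.23, adjusted p = 0.237) and Lgals3 (1.64, adjusted p = 0.237) were not.

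Among 19 membrane serine proteases and inhibitors, 2 rose and 0 fell, against 0.785% of all genes called higher. Tmprss11f read 56.9, 71.8 and 40.7 at E17.5 and 378, 187 and 173 at P3 (1.79, SE 0.27, adjusted p = 0.000334, limma). Tmprss11g read 232, 134 and 286 and then 660, 364 and 493 (1.18, SE 0.22). Tmprss11d, of the same family, was not called: it read 73.2, 65.5 and 20.9 at E17.5, 29.9, 32.6 and 68.8 at P3, and 1418, 1650 and 661 at P7. Family members can share sequence, so signal may be split between them.

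The water channel Aqp5 rose by 1.29 (SE 0.30), from 31.4, 83.9 and 14.7 to 80.4, 137 and 128, with P3 replicate 1 below E17.5 replicate 2. Without E17.5 replicates 1 and 3 its difference was 0.37 and not called. Of 18 epithelial transcription factors tested, only Hopx rose (1.23, SE 0.36, adjusted p = 0.0272, limma). Pax6, the regulator of eye identity, read 2453, 2315 and 1884 and then 2565, 2627 and 2742, with a difference of 0.26. Trp63, of epithelial stem cells, had a difference of -0.00 (SE 0.37), and Klf4 of -0.10. Keratin 14 (Krt14) read 1609, 2196 and 1927 at E17.5 and 4346, 3793 and 3620 at P3. Its arrays did not overlap, but its adjusted p was 0.0546 (log2 difference 1.04), so it was not called. Of the skin and eyelid list, Krtdap (1.29) and Calml3 (1.02), both of differentiating keratinocytes, rose, and 9 of 11 genes tested were not called. Neither kept its call without E17.5 replicates 1 and 3.

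**Figure D3:**
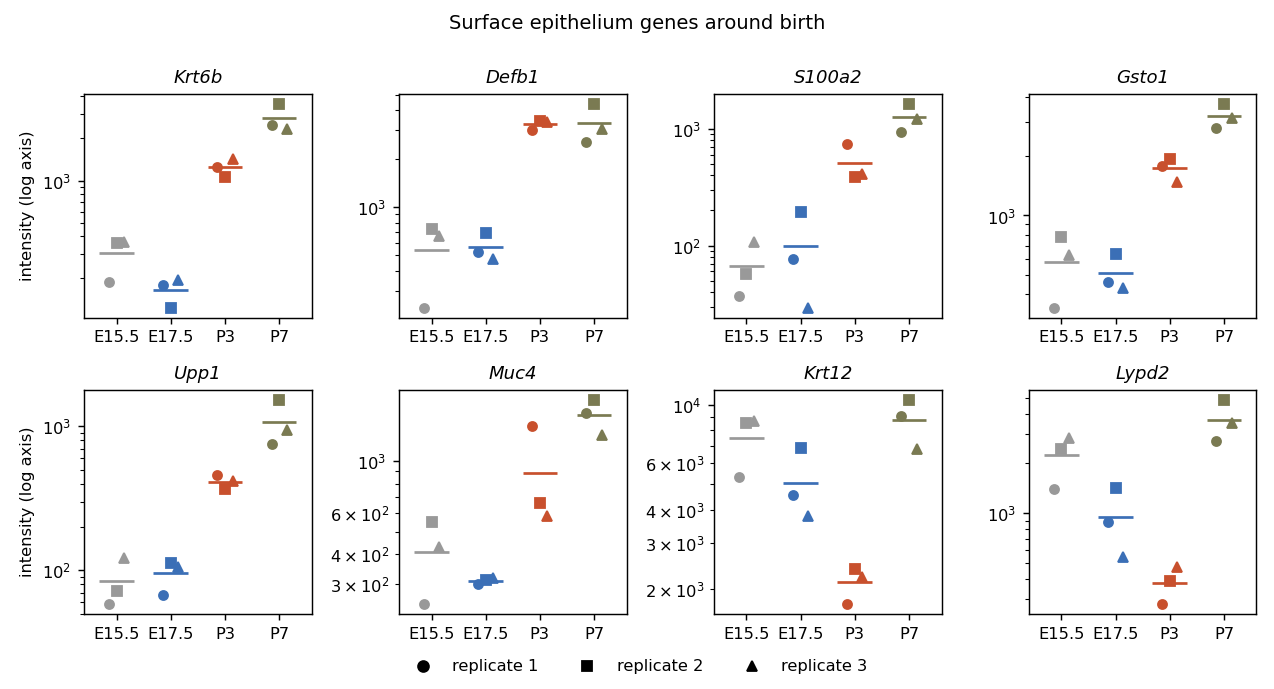
Intensity (log axis) of 8 epithelial genes on each array of E15.5, E17.5, P3 and P7, with a symbol for each replicate and a bar at the mean of each age. Krt6b, Defb1, S100a2, Gsto1, Upp1 and Muc4 are higher at P3 than at E17.5, while Krt12 and Lypd2 are lower at P3 (Krt12 1750, 2383 and 2226) and high at P7 (9058, 10419 and 6793).

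Of the 102 genes called higher, 81 belong to no list, and the 7 that follow were chosen from them after their values were seen. Sciellin (Scel), a precursor of the cornified envelope, read 746, 800 and 738 and then 2270, 2049 and 1808 (1.40, SE 0.24). The adhesion molecule Ceacam1 rose by 1.80 (SE 0.32), the retinol carrier Rbp2 by 1.95 (SE 0.28), the fatty acid hydroxylase Cyp4a12a by 1.97 (SE 0.38) and the peptidoglycan-binding protein Pglyrp1 by 1.84 (SE 0.42). Osmr, the receptor of oncostatin M, rose by 1.29 (SE 0.22), from 41.0, 20.3 and 73.5 to 154, 108 and 114. All of these 6 genes were still called without E17.5 replicates 1 and 3. Epiregulin (Ereg), a ligand of the EGF receptor, rose by 1.22 (adjusted p = 0.0496, limma), and was not called in that fit.

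The motif TGANTCA, the core of the site bound by AP-1 factors, reads the same on both strands. It lay in the 250 bases before the start of 4.77% of all 10343 promoters, of 11 of the 76 promoters of genes higher at P3 and of 2 of the 114 of genes lower. The 11 include Slc6a14, Tmprss11f, Upp1, Scel and Krtdap, and also the photoreceptor gene Gngt1. Of the 9 motifs searched, TATAAA was in 7.79% of all promoters, in 16 of the 76 and in 18 of the 114. For CCACCC the values were 33.0%, 26 and 52, for GGAAG 67.3%, 46 and 73, and for ACGTG 20.9%, 14 and 25. For CACGTG they were 8.04%, 4 and 10, for AGGTCA 10.9%, 7 and 12, and for the MEF2 site 0.474%, 1 and 3. The motif search was chosen with results of these data known, and a match is a description of letters, not a bound site. The promoters of Slc6a14 (chrX:21714650-21714899, plus strand) and Tmprss11f (chr5:86632425-86632674, minus strand) are shown as surface genes with the match, in capitals, 82 to 76 and 48 to 42 bases before the start (RefSeq, GRCm38.p6).
Slc6a14: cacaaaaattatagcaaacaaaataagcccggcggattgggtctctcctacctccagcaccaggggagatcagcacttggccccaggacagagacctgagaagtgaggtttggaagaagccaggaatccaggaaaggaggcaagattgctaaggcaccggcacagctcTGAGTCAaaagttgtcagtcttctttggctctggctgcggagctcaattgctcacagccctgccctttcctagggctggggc
Tmprss11f: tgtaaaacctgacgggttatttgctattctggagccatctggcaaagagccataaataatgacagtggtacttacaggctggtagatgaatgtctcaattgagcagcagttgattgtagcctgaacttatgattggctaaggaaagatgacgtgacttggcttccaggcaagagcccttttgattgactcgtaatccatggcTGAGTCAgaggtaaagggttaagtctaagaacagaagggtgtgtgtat

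Krt12 went against the surface genes that rose. It read 4559, 6869 and 3784 at E17.5 and 1750, 2383 and 2226 at P3, and no P3 array reached the lowest E17.5 array. The fall was 1.22 on the log2 scale (SE 0.19, adjusted p = 0.000377, limma), and it was larger without E17.5 replicates 1 and 3, at -1.70. At E15.5 Krt12 read 5329, 8500 and 8654, and at P7 9058, 10419 and 6793, so the P3 arrays were the lowest of these 4 ages. Lypd2, a small lipid-anchored protein of the ocular surface, ran in parallel, from 879, 1421 and 545 to 280, 388 and 467 and then to 2719, 4830 and 3491 at P7. Its fall at P3 was -1.21 (SE 0.26, adjusted p = 0.00472). P7 minus P3 was 2.03 for Krt12 and 3.22 for Lypd2, both called, in a comparison that shares the P3 arrays and called 1.35% of all genes higher. Other products of corneal epithelium were not called at P3. Aldh3a1, the aldehyde dehydrogenase of the mature cornea, read 314, 373 and 270 at E17.5 and 325, 281 and 326 at P3, and reached 6250, 5932 and 4361 at P7. Transketolase (Tkt) read 798, 1068 and 679 and then 818, 877 and 767. Of 19 corneal epithelial products, 2 rose (Gsto1 and Aqp5) and 1 fell (Krt12), against 0.785% and 1.11% of all genes.

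The promoter of Krt12 is shown because its change opposed that of the surface genes called higher. It holds a single CArG box, in capitals, 31 to 22 bases before the start, which overlaps a TATAAA (chr11:99422260-99422509, minus strand, RefSeq, GRCm38.p6).
Krt12: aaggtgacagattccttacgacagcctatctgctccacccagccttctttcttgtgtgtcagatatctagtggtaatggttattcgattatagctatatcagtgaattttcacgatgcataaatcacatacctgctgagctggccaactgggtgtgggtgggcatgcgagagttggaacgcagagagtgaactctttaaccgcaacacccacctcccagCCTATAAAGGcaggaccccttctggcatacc

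Outside the lists, several genes with roles in glycogen turnover were called lower. The ones given here were chosen after their values were seen and say nothing of other genes of that pathway. Ppp1r3c, which targets a phosphatase to glycogen, read 1024, 694 and 806 at E17.5, 312, 439 and 359 at P3, and 1484, 1918 and 972 at P7. The fall was -1.15 (SE 0.23, adjusted p = 0.00255, limma). The phosphorylase Pygl, which releases glucose from glycogen, read 429, 231 and 403 and then 118, 78.4 and 97.8 (-1.67, SE 0.40). Glycogen synthase (Gys1) read 274, 290 and 255 and then 136, 149 and 98.2 (-1.02, SE 0.19). The muscle form of the phosphorylase, Pygm, was also called lower (-1.02). Its difference without E17.5 replicates 1 and 3 was -0.17. Gys1 was still called without E17.5 replicates 1 and 3, and Ppp1r3c (adjusted p = 0.0821) and Pygl (adjusted p = 0.222) were not.

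Few genes of glucose uptake and glycolysis passed the call rule. Slc2a1, a glucose transporter of epithelia and red cells, read 2685, 4786 and 3398 at E17.5 and 1054, 1154 and 1986 at P3. Its fall was 1.38 on the log2 scale (SE 0.30, adjusted p = 0.0048, limma), and -1.82 without E17.5 replicates 1 and 3, still called. Of 5 red blood cell genes tested, 2 fell, Hbb-y (-1.10) and Alas2 (-1.35), neither of them called in that fit. The 8 red blood cell genes on the array summed to 2661, 989 and 2162 at E17.5 and to 1173, 1048 and 1007 at P3, so they were high on the arrays rich in muscle RNA, while Slc2a1 was highest on replicate 2. Their part in its fall was not tested. The glycolytic enzyme Tpi1 read 2447, 3458 and 2141 and then 1228, 1127 and 1304 (-1.10, SE 0.15, adjusted p = 0.000186). It too was called in that fit. Of 15 glycolysis and lactate genes, 14 had a negative difference and 1 was called, with a median of -0.41. Pgk1 (-0.63, adjusted p = 0.0134) passed on p without reaching a difference of 1, and Ldha did not pass (-0.27). Of 20 hypoxia response genes, 1 was called, Slc2a1, and 9 fell at an unadjusted p under 0.05 while 1 rose. Vegfa (-0.31), Adm (0.21), Bnip3 (-0.14) and Egln3 (-0.11), 4 targets of the hypoxia factors, were not called. Of 21 respiratory chain genes, limma called 0, and 7 fell and 0 rose at an unadjusted p under 0.05. Over all 12998 genes, 2202 fell and 1561 rose at an unadjusted p under 0.05, 29% in either direction.

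**Figure D4:**
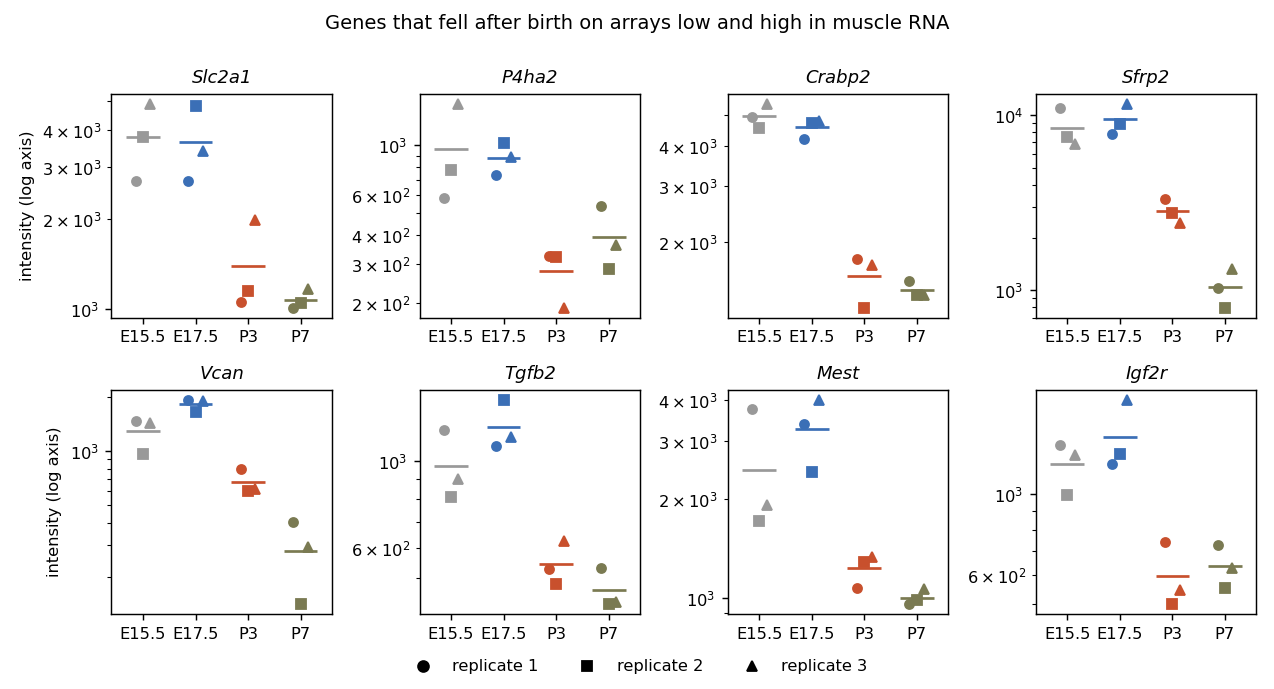
Intensity (log axis) of 8 genes that fell from E17.5 to P3, on each array of E15.5, E17.5, P3 and P7, with a symbol for each replicate and a bar at the mean of each age. E17.5 replicate 2, lowest of its age in muscle RNA, lies with replicates 1 and 3 for Crabp2 (4719 against 4191 and 4766). It lies above every P3 array for all 8 genes.

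No fibrillar collagen was called, and few genes of the enzymes and matrix proteins around them were. Of 15 fibrillar and fibril-associated collagens, limma called 0, and 0 had an unadjusted p under 0.05. Col1a1 read 4917, 7265 and 5150 at E17.5 and 5045, 5354 and 3140 at P3 (-0.37, SE 0.39). Of 16 collagen processing enzymes, all 16 had a negative difference and 2 were called lower, against 1.11% of all genes. P4ha2, a subunit of the enzyme that hydroxylates collagen prolines, read 737, 1020 and 889 and then 325, 319 and 192 (-1.63, SE 0.28, adjusted p = 0.000834, limma). Every P3 array lay below every E17.5 array, and the gene was still called without E17.5 replicates 1 and 3 (-1.85). Pcolce2, which speeds the trimming of procollagen, fell by 1.60 (adjusted p = 0.0271) and was not called in that fit (-0.42). Versican (Vcan), a large proteoglycan of fetal matrix, read 1919, 1642 and 1906 and then 798, 600 and 618. Its fall was 1.43 (SE 0.42, adjusted p = 0.0275), and it lost the call without those 2 arrays at a like size (-1.28, adjusted p = 0.2). Fibulin-1 (Fbln1) fell by 1.28 (SE 0.29) and lost its call there too (adjusted p = 0.0508), so 2 of 21 fetal and elastic matrix genes fell with all arrays and 0 without those 2. The membrane-bound collagenase Mmp14 fell by 1.06 (SE 0.24). None of 12 small leucine-rich proteoglycans, 14 genes of keratan sulfate and other glycosaminoglycan synthesis and 20 of the basement membrane was called by limma. At an unadjusted p under 0.05, 2, 2 and 5 of them passed, against 29% of all genes.

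Single members of the signalling lists fell. Sfrp2, a secreted protein that binds Wnt ligands, read 7796, 8915 and 11609 at E17.5 and 3320, 2778 and 2410 at P3, a clear gap. The fall was 1.72 (SE 0.46, adjusted p = 0.0175, limma), and its size without E17.5 replicates 1 and 3 was -1.66 (adjusted p = 0.125). Nkd1, an inhibitor that Wnt signalling induces, read 1385, 1134 and 1278 and then 577, 567 and 541 (-1.15, SE 0.21). Of 22 Wnt pathway genes, these 2 fell and 0 rose, against 1.11% of all genes called lower. Lef1 (-0.86, adjusted p = 0.037) and Sfrp1 (-0.92, adjusted p = 0.00529) passed on p without reaching a difference of 1. Crabp2, which carries retinoic acid to its receptors, read 4191, 4719 and 4766 and then 1770, 1252 and 1695 (-1.54, SE 0.35, adjusted p = 0.00657). It was the only called gene of 14 in the retinoic acid list, and without those arrays none was called by limma (Crabp2 -1.59, adjusted p = 0.0538). Nkd1 also lost its call there (-0.99). Among 25 TGF-beta and BMP genes, 2 ligands fell and 0 genes rose. Tgfb2 read 1093, 1435 and 1154 and then 528, 483 and 624 (-1.15, SE 0.18, adjusted p = 0.000377), and was still called without those arrays (-1.38). Tgfb3 fell by 1.40 (SE 0.29) and was not called there (-0.95).

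Of 19 imprinted and fetal growth genes tested, 3 fell and 0 rose, against 1.11% of all genes called lower. In this list 17 had a negative difference and the median was -0.52. Mest read 3376, 2418 and 4001 at E17.5 and 1076, 1293 and 1334 at P3 (-1.37, SE 0.23, adjusted p = 0.000838, limma). Igf2r, which clears the growth factor Igf2, read 1210, 1291 and 1806 and then 740, 501 and 548 (-1.24, SE 0.22). Cdkn1c, an inhibitor of the cell cycle, fell by 1.05 (SE 0.26). Igf2 itself read 4569, 4079 and 6404 and then 3625, 1883 and 2303, with an adjusted p of 0.108 (-0.97), and lay at 637, 714 and 849 on the P7 arrays. Of these, Igf2r alone was called without E17.5 replicates 1 and 3 (Mest -0.97, Cdkn1c -0.70). Outside the list, and chosen after its values were seen, imprinted Peg10 fell by 2.17, with 5225, 1630 and 4388 at E17.5, highest on the arrays rich in muscle RNA. Of 26 DNA replication and mitosis genes, limma called 0, and 0 rose and 1 fell at an unadjusted p under 0.05.

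Of 18 macrophage and leukocyte genes, 1 fell, Mrc1, the mannose receptor of tissue macrophages, from 796, 797 and 1183 to 471, 344 and 376 (-1.17, SE 0.31, adjusted p = 0.0179, limma). Without E17.5 replicates 1 and 3 it was not called (-0.99, adjusted p = 0.177). The list's median was 0.01. Factor XIII A (F13a1), also made by such macrophages but outside the list and chosen after its values were seen, read 424, 540 and 711 and then 176, 164 and 158. Its fall of 1.63 (SE 0.16, adjusted p = 3.89e-06) stood without E17.5 replicates 1 and 3 (-1.61). Interferon and antigen processing genes had 1 call each, both upward: Oasl2 (1.39, adjusted p = 0.0382) of 12 genes and the immunoproteasome subunit Psmb9 (1.03, adjusted p = 0.0167) of 9. Psmb9 kept its call without E17.5 replicates 1 and 3 and Oasl2 did not (1.19, adjusted p = 0.245).

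Of 13 glucocorticoid response genes, Fkbp5, a chaperone induced by the receptor, fell, from 334, 379 and 447 to 142, 176 and 222 (-1.05, SE 0.31, adjusted p = 0.0286, limma). Of 16 clock genes, the repressor Nr1d1 rose by 1.05 (SE 0.27), from 186, 166 and 92.2 to 285, 349 and 305. Nfil3 fell by 1.03 (SE 0.34), from 1338, 1012 and 1507 to 683, 525 and 639. The times of day at which corneas were taken are not given in the sources used here. Dbp (0.04) and Arntl (0.02) were not called. Without E17.5 replicates 1 and 3, Fkbp5 (-1.03, adjusted p = 0.16), Nr1d1 (0.85, adjusted p = 0.149) and Nfil3 (-0.71, adjusted p = 0.396) were no longer called by limma. Limma called 0 of 5 thyroid hormone response genes, 0 of 14 corneal endothelial genes, 0 of 13 desmosome genes and 0 of 16 tight junction and connexin genes. At an unadjusted p under 0.05, 2, 1, 1 and 2 of them passed, against 29% of all genes. Slc4a11, a transporter of the endothelial pump, read 66.8, 91.8 and 64.2 at E17.5 and 142, 208 and 141 at P3 (0.98, adjusted p = 0.0289), short of the minimum difference.

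The transition can be read on arrays that the comparison did not use. P7 against E15.5 spans birth with 6 other arrays, of which E15.5 replicate 1 had a muscle sum of 37078 and the rest lay between 7002 and 9964. Lower quartiles were 107.6 to 114.7 at P7 and 96.11 to 107.5 at E15.5, so dim signals sat higher at the later age here too. There 460 genes were called (3.54%), 311 higher (2.39%) and 149 lower (1.15%). Of the 102 genes that rose from E17.5 to P3, 93 were higher at P7 than at E15.5 (91.2%, against 46.5% of all genes) and 59 were called higher (57.8%). Krt6b (3.16), Defb1 (2.70), S100a2 (3.99), Enpp3 (3.69), Upp1 (3.43) and Gsto1 (2.51) were among them. Only Krtdap was called the other way (-1.35): it was high at E15.5 and at P3. The filter on dim probe sets kept genes above the array median on arrays of any age, P7 included. Applied to the 6 arrays of E17.5 and P3 alone, it kept 71 of the 102 rises and 142 of the 144 falls. For the other rises, a higher P7 value may be partly built in by the filter. The share of all genes is thus not a matched comparison, and the filter's part in the 93 and the 59 was not tested. Of the 15 largest rises of named genes whose arrays did not overlap, Xist (1.46), Pdc (1.70), Sag (1.04), Rp1 (0.94), Neurod4 (0.03) and Psca (0.41) were not called between E15.5 and P7.

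Of the 144 genes that fell, 127 were lower at P7 than at E15.5 (88.2%, against 53.5% of all genes), 37 were called lower (25.7%) and 0 higher. Sfrp2 (-2.98), Vcan (-2.23), Crabp2 (-1.79), Slc2a1 (-1.76), Mest (-1.19), P4ha2 (-1.19), Nkd1 (-1.34), Tgfb2 (-1.02) and Nfil3 (-2.30) were called. Of the 28 muscle list members tested, 25 were lower at P7 than at E15.5 and 1 was called, with a list median of -0.40. The 144 hold the 73 genes with E17.5 replicate 2 nearer to P3, and E15.5 replicate 1 was itself the array highest in muscle RNA there. The parts of muscle RNA and of sex in the 127 were not tested. Krt12 (0.24) and Lypd2 (0.74) were not called between these ages, nor were Tpi1 (-0.25) and Igf2r (-0.91). P3 against E15.5, which shares the P3 arrays, called 341 genes (2.62%), 190 higher (1.46%) and 151 lower (1.16%).

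**Figure D5:**
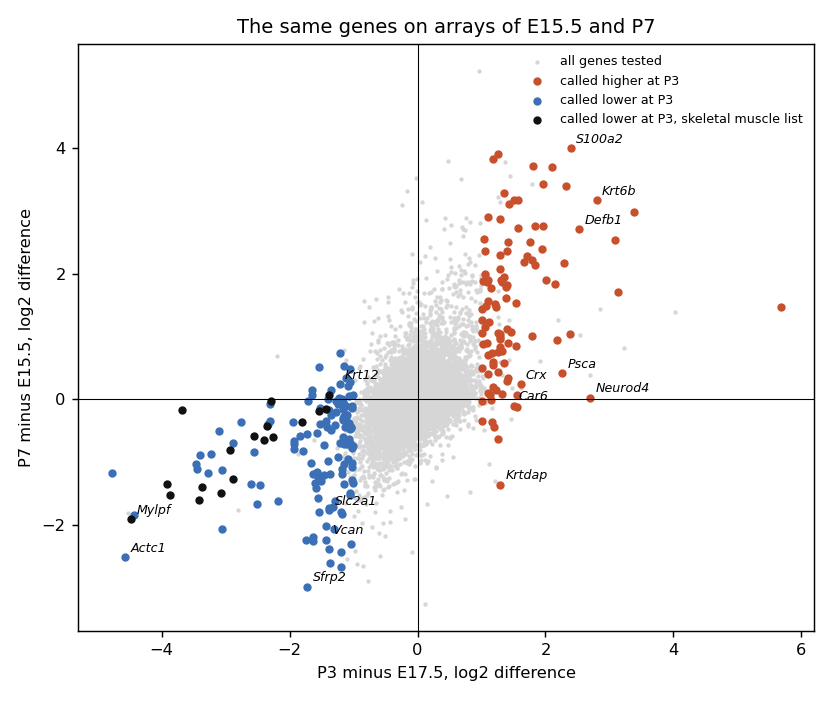
Log2 difference between P7 and E15.5 (vertical axis) against that between P3 and E17.5 (horizontal axis) for the 12998 genes tested, with no array in common between the axes. Of the genes called higher at P3, 93 of 102 lie above 0 on the vertical axis, and of those called lower, 127 of 144 lie below 0, where the muscle list has a median of -0.40.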

How the data were processed

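RNA of whole cornea was measured on 32 arrays of 12 ages, and of epithelium and stroma on 1 array each, which were not used here. The deposited values are linear intensities, 1 per probe set and array. The submitters' processing notes name PLIER, a probe summary method, and Affymetrix Expression Console 1.1 as the authors' tools. The background and normalization settings are not given in the sources used here. Of 35557 probe sets, 21789 had a single gene symbol in the platform annotation, 1621 had several and 12147 had none. Symbols were checked against RefSeq by Entrez ID, which 21698 matched.

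Probe sets brighter than the array median on at least 2 of the 32 arrays were kept, 14329 in all, and the brightest per gene left 12998 genes. With limma 3.58.1 under R 4.3.3, log2(intensity + 16) of the 32 arrays was fitted by lmFit with a mean for each age and moderated by eBayes. The fit had 20 residual degrees of freedom and 4.1 from the prior. Tests were two-sided, with no replicate block and Benjamini-Hochberg adjustment over all 12998 genes. The fit was tested on simulated data. P7 against E15.5 and P3 against E15.5 came from the same fit.

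The arrays follow from the ages in the labels, but the comparison, its 49 gene lists (926 entries, 852 with a probe set) and the motifs were chosen with earlier results of these data known. Named genes are the 15 largest rises and 15 largest falls among called genes with arrays that did not overlap, without unnamed transcripts, and any list member. Others are marked in the text. Lists are described by counts of called members, for some with the median, to be read against the shares of all genes called. Not all lists are described. The number of arrays, 3 per age, limits the precision. Alternatives were other filters, offsets, normalizations, ways to join probe sets, moderation, array weights, arrays in the fit, a replicate block, thresholds, and arrays left out.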

Additional observations from a re-analysis of the deposited data

Results flagged for a closer look

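Probe sets that carry several gene symbols or none in the annotation stand outside the comparison of genes. In the same fit and with the same call rule, 393 of 7472 such probe sets were called between P3 and E17.5 (5.26%, against 1.89% of named genes), 348 higher at P3 and 45 lower. Their transcripts are unnamed here.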

How the results depend on the processing

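The count of 246 genes called between P3 and E17.5 stayed within 1.5 times under other filters, offsets, normalizations, moderation, array weights and ways to join probe sets (188 to 360), and all 246 genes kept their direction wherever they were tested in these. It was 134 with the 6 compared arrays alone, 151 at an adjusted p under 0.01, 1691 with no minimum difference and 418 without E17.5 replicates 1 and 3. Leaving out single arrays gave 174 to 297, with 25.6% to 54.9% of calls higher at P3. An offset of 64, or a filter on the 6 compared arrays, lowered the count of rises more than that of falls. An offset of 64 gave 61 higher and 127 lower. Genes above the array median on at least 2 of the 6 compared arrays gave 71 and 144. Those above it on at least 6 of the 32 arrays gave 92 and 119. Array weights gave 112 higher and 248 lower. Leaving out E17.5 replicate 1, 2 or 3 gave 134 and 110, 76 and 221, and 95 and 79. P7 against E15.5 gave 360 to 475 calls without single arrays, and P3 against E15.5 gave 214 (without E15.5 replicate 3) to 472. Of 79 named genes, 8 changed sign without E17.5 replicates 1 and 3: Fabp4 0.31, Actn2 0.037, Tnnt1 0.14, Des 0.16, Casq1 0.20, Myf6 0.28, Cav3 0.057 and Alas2 0.035, and 52 lost their call with the same sign. The cause was not tested for any of these, beyond the fewer arrays and other thresholds the settings impose.

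Same-numbered arrays of E17.5 and P3 had correlations of -0.236, 0.138 and 0.0703 between their deviations from the age means. Unlike-numbered arrays ran from -0.236 to 0.302. With 3 arrays per age these values cannot decide whether the numbers pair the samples. With the replicate number as a block, 242 genes were called in the 32-array fit, 238 of them among the 246, and 33 with the 6 compared arrays alone. P7 against E15.5 gave 455 and P3 against E15.5 gave 340 with the block.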

Other observations

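Olfactory receptor genes, which the filter on dim probe sets mostly removes, were counted after earlier results were known. With no filter, 284 of 19938 genes were called (1.42%), among them 18 of 1027 olfactory receptor genes (1.75%).

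Called genes that belong to no list, and were chosen here after their values were seen, include the following. Fat4, an atypical cadherin of tissue growth, read 1325, 1326 and 1914 at E17.5 and 901, 625 and 707 at P3 (log2 difference -1.01, adjusted p = 0.00441, limma), and -1.34 at P7 against E15.5, where it was called lower. Sulf2, which trims heparan sulfate, read 1142, 1013 and 1574 and then 658, 505 and 433 (-1.20), and Pdgfra, a receptor of mesenchymal growth factors, read 1476, 1928 and 2243 and then 955, 864 and 653 (-1.17). Both were called lower at P7 than at E15.5 too. The receptor tyrosine kinase Epha7 read 656, 698 and 637 and then 242, 226 and 266 (-1.38, SE 0.21), and kept its call without E17.5 replicates 1 and 3, while Fat4 (adjusted p = 0.0799), Sulf2 (0.252) and Pdgfra (0.155) did not. Upward, the carboxylesterases Ces2f (1.09) and Ces2g (1.42), the reductase Akr1c13 (1.51) and the nucleoside transporter Slc28a3 (1.57) rose at P3 and were called higher at P7 than at E15.5 as well. Ces2g and Akr1c13 kept their calls without E17.5 replicates 1 and 3, and Ces2f (0.97) and Slc28a3 (adjusted p = 0.0766) did not. Akr1c13 read 37.4, 18.2 and 53.2 at E17.5, 118, 144 and 119 at P3, and 514, 878 and 317 at P7.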
